A study of Mus musculus with 9 samples.

Results

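The tripartite motif (TRIM) genes were taken from a count table of mouse dendritic cells (DCs) by their symbols, as every row named *Trim* followed by digits and at most 1 further letter. This rule found 68 rows of the 55471 in the table, and 44 of them reached 10 or more counts in at least 3 of the 9 libraries and are described here. The rule used no comparison between conditions. However, *Trim34b*, *Trim69* and *Trim72* had fewer than 10 counts in some unstimulated libraries and met it only with stimulated libraries. For these genes, passing the rule thus depended on the conditions in which they were higher. All 44 are protein-coding genes on 13 chromosomes, and all 44 passed the filter on low counts of the differential test. Of the other 24 rows, 9 had no count in any library and 15 had counts that never exceeded 15 in a library.

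Bone marrow of female wild-type C57BL/6 mice aged 8 to 20 weeks had been cultured with GM-CSF at 20 ng/mL, and the DCs were harvested on day 8 or 9. The cells were left unstimulated, given LPS at 100 ng/mL, a bacterial ligand of TLR4, or given IFN-β at 1000 U/mL, the type I interferon, and RNA was sequenced after 6 h. Each condition had 3 libraries labelled A, B and C, with 33425803 to 43735199 counts each. Nothing in the sources says that the 3 libraries of a condition came from separate animals or cultures, so the p-values measure the spread between these libraries, which may be technical. A GM-CSF culture holds a mixture of myeloid cells, and in such bulk RNA fewer cells of a type cannot be told apart from less RNA per cell.

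TRIM proteins carry a RING finger, 1 or more B-boxes and a coiled coil, followed by a C-terminal domain that differs between members. The RING finger makes most of them E3 ubiquitin ligases, and the C-terminal domain chooses what they bind. Members with a SPRY domain at that end include restriction factors that bind viral proteins and regulators of the sensors of viral nucleic acid. Many of these are known interferon-stimulated genes, whose promoters can hold an element bound by transcription factors that interferon activates. Other members have kept general roles, such as the chromatin regulators with a PHD finger and bromodomain and the NHL-repeat proteins.

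Of the class with a SPRY domain but no FN3 domain after the motif, here called the SPRY class, 27 of 38 listed members were reported. The NHL class was reported for 3 of 4, the PHD-bromodomain class for 3 of 4, the class with both an FN3 and a SPRY domain for 2 of 4, both transmembrane members, and the class with no further domain for 2 of 6. None of the 3 muscle-type MURF members (*Trim54*, *Trim55* and *Trim63*) was reported. On chromosome 7 lay 15 of the 44, and 10 of these stood close together from *Trim6* to *Trim30d*, chr7:104218793-104507849 on the GRCm38 build. These 10 are relatives of primate *TRIM5*, the gene of a retroviral restriction factor.

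Promoter stretches are shown for the 5 members in which the core of the interferon-stimulated response element lay before the annotated gene start, all of them called higher under both stimuli below. The core searched was GAAANNGAAA or its reverse complement TTTCNNTTTC, in a window of 250 bases before to 50 bases after the start of each RefSeq gene, on the GRCm38.p6 build. Each is written 5′ to 3′ on the strand of its gene, with the matched bases in capitals.
Trim30a (chr7:104465195-104465254, minus strand): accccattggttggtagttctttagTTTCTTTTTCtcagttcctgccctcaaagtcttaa
Trim30d (chr7:104507856-104507915, minus strand): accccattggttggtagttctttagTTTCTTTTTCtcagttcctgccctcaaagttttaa
Trim5 (chr7:104288121-104288180, minus strand): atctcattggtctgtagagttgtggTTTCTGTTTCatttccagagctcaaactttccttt
Trim12c (chr7:104353350-104353403, minus strand): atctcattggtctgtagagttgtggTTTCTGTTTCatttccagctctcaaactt
Trim26 (chr17:36836961-36837026, plus strand): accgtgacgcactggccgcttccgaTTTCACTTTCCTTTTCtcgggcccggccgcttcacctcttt

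The stretches of *Trim30a* and *Trim30d* had 59 of 60 bases in common, and those of *Trim5* and *Trim12c* had 52 of 54 in common, so that each pair is close to 1 sequence. The match began 36 bases before the start in *Trim30a*, 41 in *Trim30d*, 49 in *Trim5*, 29 in *Trim12c* and 160 in *Trim26*, where a second match overlapped the first. In *Trim12a*, *Trim21* and *Trim34a*, and at a second start listed for *Trim30a*, a match lay within the first 50 bases after the start. Of the 34 reported members with a promoter entry, 9 held the core (26.5%), against 3.99% of the 27025 genes in the promoter table and 4.03% of the 10628 tested genes with an entry. The core was present in 8 of the 16 members with an entry that were called higher under IFN-β, in 1 of the 7 called lower (*Trim2*) and in 0 of the 11 not called. Among the 16, it was absent from *Trim6*, *Trim25*, *Trim30b*, *Trim30c*, *Trim34b*, *Trim56*, *Trim69* and *Trim72*. *Trim30c* and *Trim30b* had the largest increases of the family. Of those with the core, *Trim5*, *Trim12a*, *Trim12c*, *Trim30a*, *Trim30d* and *Trim34a* are related neighbours on chromosome 7, so they are not separate observations. Over all genes it was present in 7.55% of those called higher under IFN-β and in 2.37% of those called lower. The 10 members *Trim3*, *Trim8*, *Trim11*, *Trim14*, *Trim16*, *Trim29*, *Trim33*, *Trim35*, *Trim36* and *Trim65* had no entry in the table. A match is a string of letters in a window and was not tested as a binding site.

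The reported genes changed in both directions, and the changes with LPS and IFN-β did not go opposite ways in any member that both tests called. Under LPS, 21 of the 44 were higher and 15 lower than in unstimulated DCs, 36 in all, at an adjusted p under 0.05 in edgeR's quasi-likelihood test. Of the 16260 genes tested, 68.2% were called in this comparison, 32.8% as higher and 35.4% as lower, so the share of members called lower was close to that of all genes and the share called higher was above it. Under IFN-β, 18 were higher and 9 lower, 27 in all, against 46.9% of all genes called, with 23.6% higher and 23.3% lower. With a log2 fold change of 1 or more in size as well, LPS raised 16 members and lowered 7, 23 in all, where 33.4% of all genes passed (16.2% higher and 17.2% lower). IFN-β raised 14 members and lowered 2 by that rule, 16 in all, where 12.6% of all genes passed (8.17% higher and 4.45% lower). The median log2 fold change of the members was 0.20 with LPS and 0.07 under IFN-β, against -0.04 and -0.02 over all genes.

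The calls joined into few patterns. Both stimuli raised 18 members, which were *Trim5*, *Trim6*, *Trim12a*, *Trim12c*, *Trim14*, *Trim21*, *Trim25*, *Trim26*, *Trim30a*, *Trim30b*, *Trim30c*, *Trim30d*, *Trim34a*, *Trim34b*, *Trim35*, *Trim56*, *Trim69* and *Trim72*. Both lowered 8, which were *Trim2*, *Trim7*, *Trim16*, *Trim27*, *Trim32*, *Trim37*, *Trim47* and *Trim65*. LPS alone passed the test as higher in 3 (*Trim13*, *Trim33* and *Trim36*) and as lower in 7 (*Trim3*, *Trim8*, *Trim11*, *Trim24*, *Trim29*, *Trim44* and *Trim68*), IFN-β alone in 1 (*Trim28*, lower), and neither in 7 (*Trim23*, *Trim39*, *Trim41*, *Trim45*, *Trim46*, *Trim59* and *Trim62*). Each of the 18 was higher in the stimulated than in the unstimulated library of the same letter for 3 of 3 letters under both stimuli, and each of the 8 was lower in 3 of 3. These members were picked by calls on the same libraries, so this agreement adds no support. *Trim34b*, *Trim69* and *Trim72* also met the reporting rule only with stimulated libraries. With at least 10 counts required in every library, 17 members were called higher under LPS and 15 under IFN-β. The share of all genes called the same way by both stimuli was not computed. Both comparisons share the 3 unstimulated libraries, so the patterns are not 2 independent observations.

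**Figure D1:**
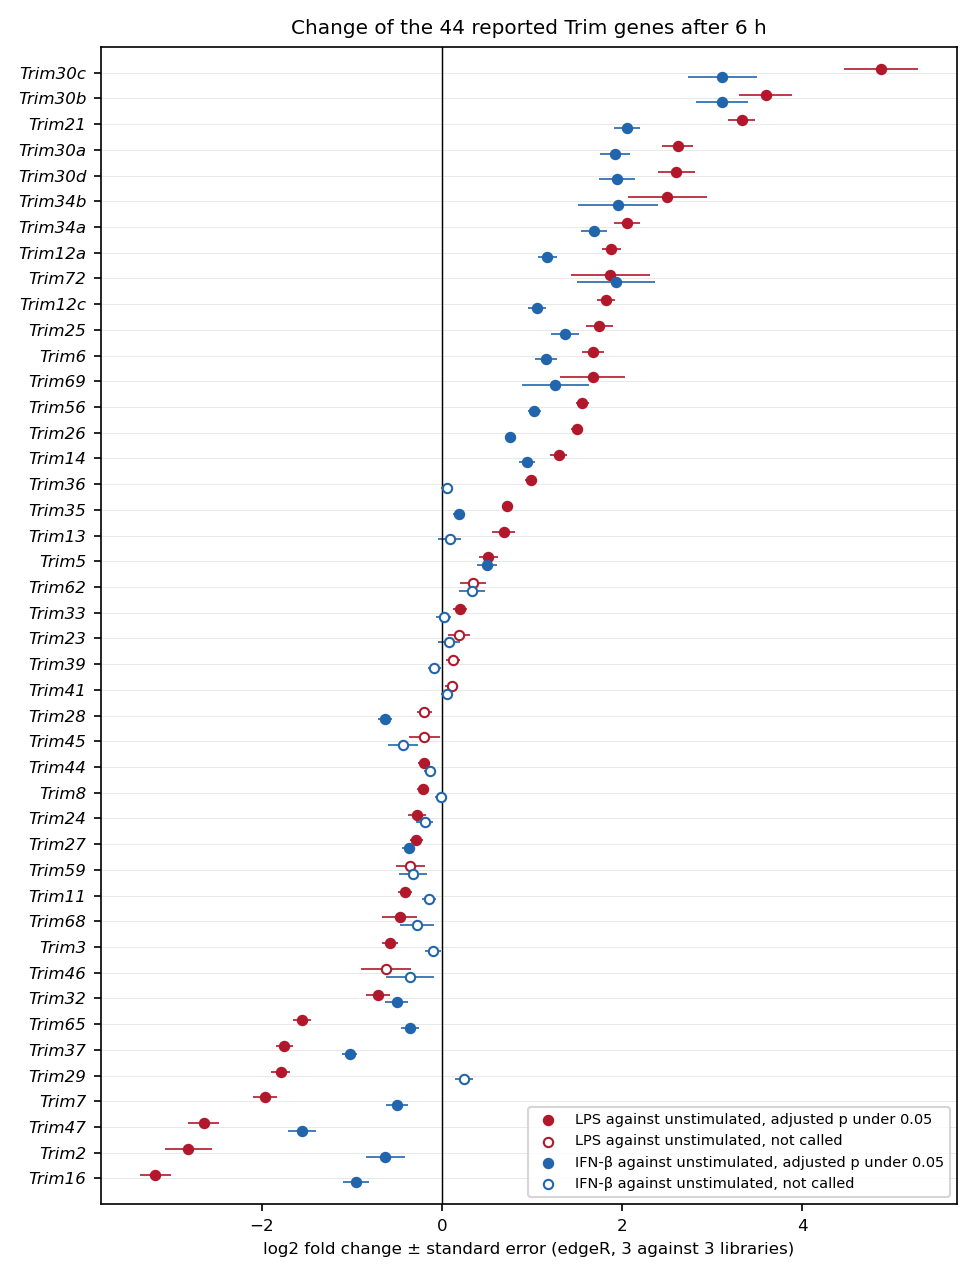
The plot of changes gives, for each of the 44 reported genes, the log2 fold change with its standard error under LPS (red) and IFN-β (blue), with filled points for an adjusted p under 0.05 and genes ordered by the LPS change. *Trim30c*, *Trim30b* and *Trim21* lie at the top at log2 4.88, 3.60 and 3.33 under LPS, and *Trim16*, *Trim2* and *Trim47* at the bottom at -3.18, -2.81 and -2.64.

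The family as a whole took a larger part of the RNA after stimulation. Its 68 rows together held 0.148 to 0.175% of the counts in the unstimulated libraries, 0.320 to 0.334% with LPS and 0.258 to 0.270% under IFN-β, with no overlap between the conditions. These shares are of total counts without any scaling. On the scale used below, CPM values after TMM scaling for library size and composition, the sum was 1171 to 1481 in unstimulated DCs, 3812 to 4270.0 with LPS and 2619 to 2770.4 under IFN-β. The 4 genes *Trim30a* to *Trim30d* made up 13.3 to 19.9% of that sum in unstimulated DCs, 43.2 to 45.7% with LPS and 36.0 to 38.1% under IFN-β. *Trim25* held 12.96 to 16.8%, 16.5 to 17.5% and 19.0 to 19.9%. In unstimulated library C the sum and the *Trim30* part were the lowest of the 9 libraries.

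**Figure D2:**
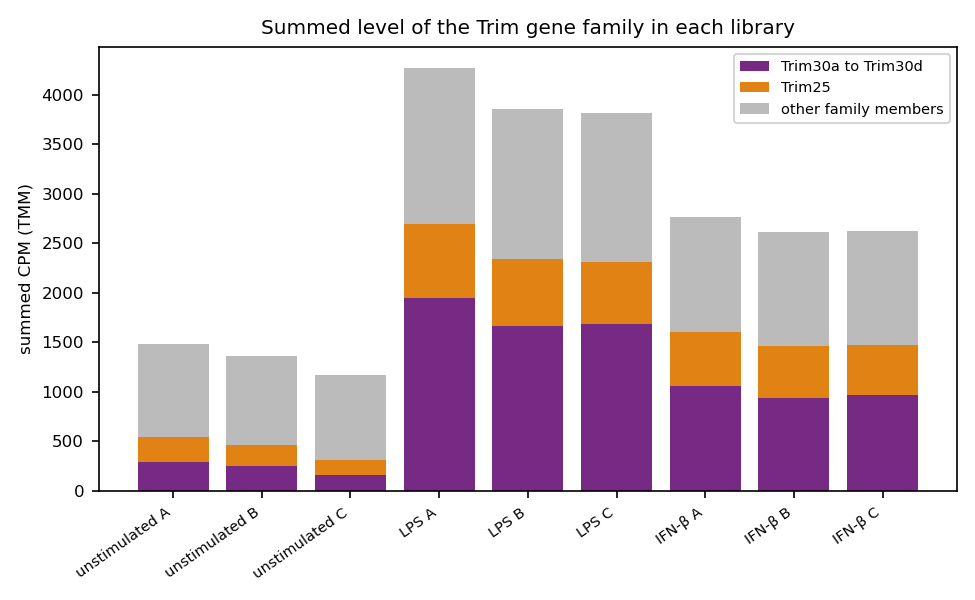
The plot of summed levels stacks, for each of the 9 libraries, the CPM of *Trim30a* to *Trim30d*, of *Trim25* and of the other family members. The 3 LPS libraries reach 3812 to 4270.0 CPM and the 3 IFN-β libraries 2619 to 2770.4 CPM, above 1171 to 1481 CPM in the unstimulated libraries, and the *Trim30* part takes 43.2 to 45.7% of each LPS bar.

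*Trim30c* and *Trim30b* had the largest increases of the family under both stimuli. In what follows, 3 values in a row are CPM in libraries A, B and C of a condition. *Trim30c* (ENSMUSG00000078616, chr7:104382065-104400837), a close relative of *Trim30a*, had 20.2, 11.2 and 5.71 CPM in unstimulated DCs, 459, 354 and 274 with LPS and 135, 95.7 and 89.9 under IFN-β. All 3 LPS libraries were above all 3 IFN-β libraries, which were above all 3 unstimulated ones, and within each condition library A was the highest and C the lowest. The log2 fold change was 4.88 ± 0.41 (standard error) under LPS, 29.4-fold, with an adjusted p of 1.64e-06 in edgeR's test over all genes, and 3.12 ± 0.38 under IFN-β (8.68-fold, adjusted p = 9.85e-05). Its level under IFN-β was 3.39-fold below that under LPS (log2 -1.76 ± 0.36, adjusted p = 0.00198).

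*Trim30b* (chr7:104355382-104369884) lies next to it and had 7.96, 6.78 and 3.001 CPM in unstimulated DCs. It reached 88.99, 65.7 and 59.3 with LPS and 58.01, 48.6 and 46.4 under IFN-β, and no unstimulated library overlapped a stimulated one. The fold changes were 12.1 and 8.66 (log2 3.60 ± 0.29 and 3.11 ± 0.29, adjusted p = 1.27e-06 and 1.55e-05). Between IFN-β and LPS the log2 difference was -0.48 ± 0.26, which did not pass (adjusted p = 0.146, 95% interval -0.99 to 0.021). It passed with the library letter as a block (adjusted p = 0.00551) and with unstimulated library C left out (adjusted p = 0.0198).

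*Trim30a* (chr7:104409025-104465193) encodes a ligase known as a brake on TLR-driven NF-κB activation, through loss of the adaptors TAB2 and TAB3. It had 180.4, 165 and 104 CPM in unstimulated DCs, 962, 875 and 921 with LPS and 587, 549 and 571 under IFN-β. *Trim30d* (chr7:104470014-104507849), whose promoter stretch above differs from that of *Trim30a* by 1 base, had 86.8, 73.9 and 43.7, 443, 373 and 428 and 275, 249.6 and 265 CPM in the same order. In both genes unstimulated library C was the lowest of the 9, and the 3 conditions did not overlap. The LPS changes of the pair were log2 2.62 ± 0.17 and 2.61 ± 0.21 (adjusted p = 2.57e-07 and 9.58e-07), and the IFN-β changes 1.93 ± 0.17 and 1.95 ± 0.20 (adjusted p = 1.06e-05 and 3e-05). Each was lower under IFN-β than under LPS, by 1.62-fold and 1.58-fold (adjusted p = 0.00503 and 0.0162), although the second of these calls was lost without IFN-β library B (adjusted p = 0.0568). Of all 100-base windows along their transcripts, 4.41% of those of *Trim30a* occur in *Trim30d*. A single 100-base read from such a window cannot be assigned to 1 gene by its own sequence, and what its paired read adds was not examined. *Trim30b* and *Trim30c* shared no such window with another gene.

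The *Trim5* and *Trim12* genes, which correspond to primate *TRIM5*, rose by unequal amounts. *Trim12a* (chr7:104299894-104315466) had 26.96, 24.3 and 19.4 CPM in unstimulated DCs, 84.9, 86.3 and 89.4 with LPS and 49.5, 54.4 and 55.2 under IFN-β. *Trim12c* (chr7:104338754-104353362) was alike, with 31.4, 28.3 and 24.1, then 103, 91.4 and 103 and 59.9, 53.5 and 60.5 CPM. The log2 changes under LPS were 1.88 ± 0.11 and 1.83 ± 0.10 (adjusted p = 8.80e-08 and 7.38e-08), and under IFN-β 1.17 ± 0.11 and 1.05 ± 0.10 (adjusted p = 1.25e-05 and 1.72e-05). Each stood lower under IFN-β than under LPS (log2 -0.71 ± 0.10 and -0.77 ± 0.10, adjusted p = 2.20e-04 and 8.27e-05).

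*Trim5* itself (chr7:104263386-104288094) had the smallest increase of the 10 neighbours. Its values were 9.68, 9.84 and 7.96 CPM in unstimulated DCs, 11.7, 12.99 and 14.6 with LPS and 13.6, 12.5 and 12.8 under IFN-β, with every stimulated library above every unstimulated one. The log2 change was 0.52 ± 0.11 with LPS and 0.50 ± 0.11 under IFN-β (adjusted p = 0.00143 and 0.00319), and IFN-β and LPS did not differ by the test (log2 -0.017 ± 0.11, adjusted p = 0.908, 95% interval -0.23 to 0.19). Scaled by library size alone the LPS change turned to log2 -0.06, as is set out in the closing section. The promoter stretches of *Trim5* and *Trim12c* shown above are nearly the same letters, while the LPS change of *Trim12c* was 3.55-fold and that of *Trim5* 1.43-fold. In the transcript of *Trim5*, 11.7% of the 100-base windows recur in other genes, mostly *Trim12c*.

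*Trim34a* and *Trim6* lie at the other end of the run. *Trim34a* (chr7:104244457-104262234), another *Trim5* relative, had 30.1, 26.6 and 18.5 CPM unstimulated, 106, 98.9 and 108 with LPS and 84.5, 76.8 and 81.7 under IFN-β. *Trim6* (chr7:104218793-104235152), which makes free ubiquitin chains that activate the kinase IKKε, had 3.93, 5.43 and 4.22, 13.7, 15.4 and 14.4 and 10.5, 10.4 and 9.47 CPM. In both genes the LPS libraries were above the IFN-β libraries and these above the unstimulated ones. *Trim34a* rose 4.17-fold with LPS and 3.23-fold under IFN-β (log2 2.06 ± 0.15 and 1.69 ± 0.14, adjusted p = 4.21e-07 and 8.77e-06). Its difference between IFN-β and LPS passed narrowly (log2 -0.37 ± 0.14, adjusted p = 0.0487) and was lost on leaving out any of 7 libraries (unstimulated B and each LPS and IFN-β library), with adjusted p from 0.0657 to 0.139. *Trim6* rose 3.197-fold and 2.23-fold (log2 1.68 ± 0.12 and 1.16 ± 0.12, adjusted p = 5.07e-07 and 3.35e-05), and was lower under IFN-β than LPS (log2 -0.52 ± 0.12, adjusted p = 0.00352).

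*Trim34b* (chr7:104329471-104336909) was near the floor of the reporting rule. Its counts were 13, 8 and 2 in the unstimulated libraries, 30, 34 and 35 with LPS and 35, 19 and 29 under IFN-β, with no overlap between unstimulated and stimulated libraries. It was called higher under both (log2 2.51 ± 0.44 and 1.96 ± 0.45, adjusted p = 3.97e-04 and 0.00446). Without unstimulated library A these changes became 3.17 and 2.62, and without unstimulated library C, which held 2 counts, they became 2.03 and 1.48. In its transcript, 30.5% of the 100-base windows also occur in *Trim34a*, and 21.0% of those of *Trim34a* occur in *Trim34b*. The counter leaves out reads that map to several places, so reads from these windows may be missing from both genes. With an overlapping antisense gene included, 39.0% of the windows of *Trim34a* occur in other genes. The difference between IFN-β and LPS did not pass (log2 -0.55 ± 0.36, adjusted p = 0.236, 95% interval -1.26 to 0.16).

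*Trim21* and *Trim68* lie near each other elsewhere on chromosome 7, before the run of 10, and *Trim21* was higher under both stimuli where *Trim68* was not. *Trim21* (ENSMUSG00000030966, chr7:102557921-102565486) encodes the cytosolic antibody receptor that marks antibody-coated virus for degradation. It had 20.5, 17.2 and 14.3 CPM in unstimulated DCs, 209, 163 and 152 with LPS and 77.9, 67.05 and 72.1 under IFN-β. The 3 conditions were far apart, with a 10.1-fold increase under LPS (log2 3.33 ± 0.15, adjusted p = 2.35e-08) and a 4.17-fold increase under IFN-β (log2 2.06 ± 0.15, adjusted p = 3.25e-06). IFN-β stood 2.41-fold below LPS (log2 -1.27 ± 0.14, adjusted p = 3.27e-05).

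For *Trim68* (chr7:102677582-102687327) the values were 4.71, 3.55 and 4.49 CPM in unstimulated DCs, 2.37, 3.79 and 3.01 with LPS and 3.04, 3.45 and 4.03 under IFN-β, and the conditions overlapped. It was called lower under LPS by a narrow margin (log2 -0.47 ± 0.19, adjusted p = 0.0497). That call was lost on leaving out unstimulated A or C, LPS A or C, or IFN-β B or C (adjusted p from 0.0519 to 0.167). Under IFN-β it did not pass (log2 -0.28 ± 0.19, adjusted p = 0.253). All 10 genes of the run from *Trim6* to *Trim30d* were thus higher under both stimuli, with a median log2 change of 2.28 with LPS and 1.81 under IFN-β. With *Trim21* and *Trim68* added 11 of 12 were. Of all genes tested, 32.8% were higher under LPS and 23.6% under IFN-β, and the share higher under both was not computed. The 10 neighbours are related genes that share sequence, so they are not separate observations.

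**Figure D3:**
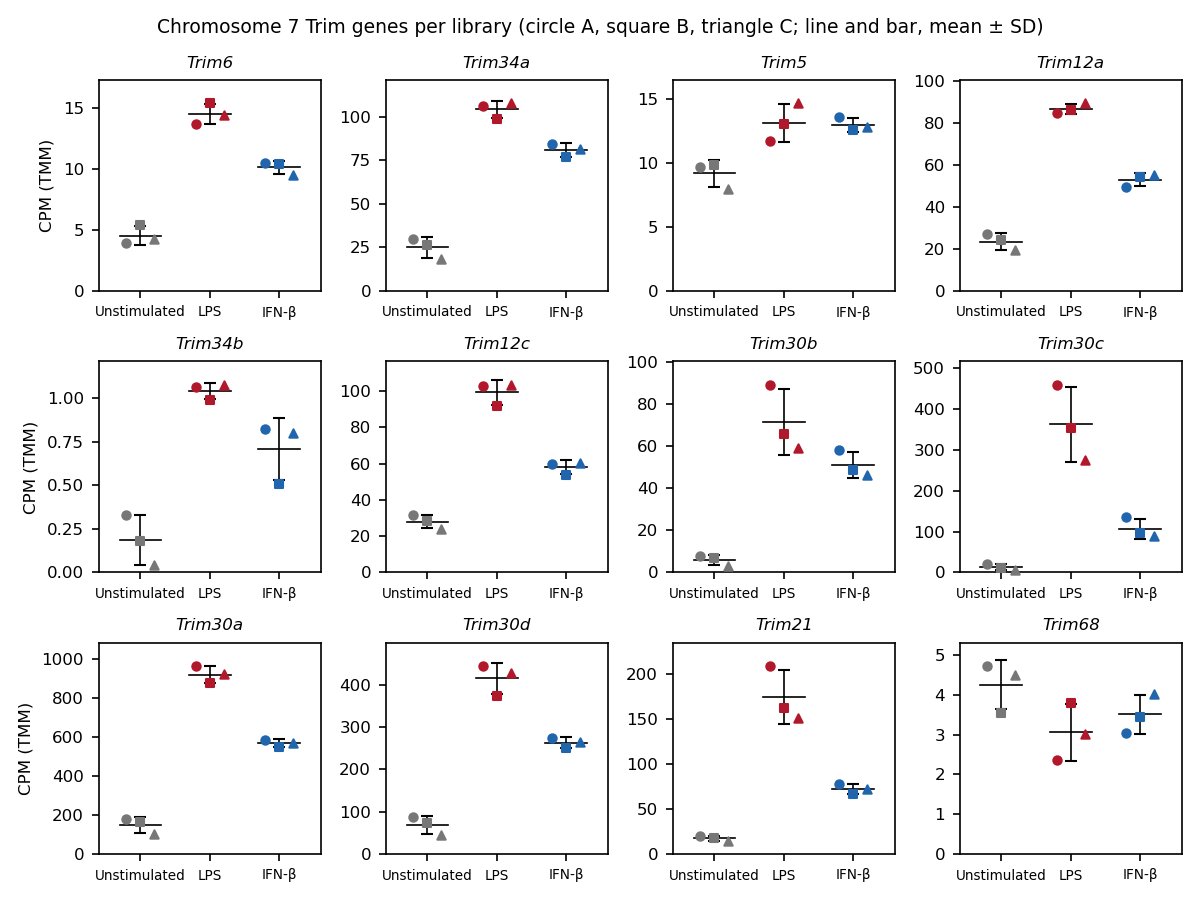
The plot of the chromosome 7 genes gives CPM in each library for 12 genes, each panel with its own axis from 0, with the mean and SD of the 3 libraries of a condition as a line and bar. In every panel but *Trim68* the 6 stimulated libraries stand above the 3 unstimulated ones, and *Trim30c* ranges from 20.2, 11.2 and 5.71 CPM unstimulated to 459, 354 and 274 CPM under LPS.

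Outside chromosome 7, *Trim25*, *Trim14*, *Trim56* and *Trim26* rose under both stimuli, while *Trim65* fell. *Trim25* (ENSMUSG00000000275, chr11:88999376-89020293) is the ligase known for its action on the RNA sensor RIG-I and as a cofactor of the antiviral protein ZAP. It had 249, 207 and 152 CPM in unstimulated DCs, 739, 676 and 629 with LPS and 548, 522 and 498 under IFN-β. All 6 stimulated libraries were above the highest unstimulated one, and the log2 changes were 1.75 ± 0.15 and 1.37 ± 0.15 (adjusted p = 2.14e-06 and 4.91e-05). The IFN-β libraries were all below the LPS libraries (log2 -0.38 ± 0.15), a difference with an adjusted p of 0.0542 that passed with the letter as a block (0.00266) and without unstimulated library A or C (0.0193 and 0.00671).

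*Trim14* (chr4:46493781-46536141), which lacks a RING finger and acts as an adaptor of the mitochondrial signalling protein MAVS, had 44.8, 38.8 and 33.8 CPM unstimulated, 98.5, 95.9 and 94.7 with LPS and 74.03, 73.1 and 79.4 under IFN-β. *Trim56* (chr5:137105644-137116209), a ligase with no further domain that acts in STING signalling and against RNA viruses, had 68.3, 61.2 and 57.1, then 183, 180.4 and 187 and 134, 123 and 124 CPM. *Trim26* (chr17:36837134-36859398), a SPRY ligase encoded beside the MHC, had 45.4, 45.8 and 44.5, then 132, 134 and 116 and 76.4, 76.3 and 77.4 CPM. None of the 3 conditions overlapped in any of these genes, and LPS was the highest in each. Under LPS the log2 changes were 1.30 ± 0.093 for *Trim14*, 1.56 ± 0.075 for *Trim56* and 1.50 ± 0.065 for *Trim26* (adjusted p = 4.64e-07, 3.03e-08 and 1.75e-08). Under IFN-β they were 0.95 ± 0.092, 1.03 ± 0.074 and 0.76 ± 0.065 (adjusted p = 2.03e-05, 3.43e-06 and 8.77e-06). The gene *Nans* overlaps 31.3% of the exon bases of *Trim14* on the opposite strand, and whether the counting used strand is not given in the sources used here.

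*Trim65* (chr11:116121846-116131128), the ligase known to activate the RNA sensor MDA5, went the other way. It had 17.03, 14.6 and 14.8 CPM in unstimulated DCs, 4.67, 5.27 and 5.87 with LPS and 12.1, 12.5 and 11.8 under IFN-β. The LPS libraries lay far below the others, a 2.93-fold decrease (log2 -1.55 ± 0.10, adjusted p = 2.65e-07), while IFN-β gave a small decrease (log2 -0.35 ± 0.10, adjusted p = 0.0121). Its neighbour *Trim47* (chr11:116105752-116127210), a SPRY ligase whose exons overlap those of *Trim65* for 8.23% of their bases, had 8.79, 7.57 and 7.42 CPM, then 1.42, 1.14 and 1.26 with LPS and 2.58, 3.27 and 2.24 under IFN-β. *Trim47* fell 6.25-fold with LPS and 2.94-fold under IFN-β (log2 -2.64 ± 0.17 and -1.56 ± 0.15, adjusted p = 2.25e-07 and 2.39e-05). Both genes were higher under IFN-β than under LPS (log2 1.20 ± 0.10 and 1.09 ± 0.18, adjusted p = 5.17e-06 and 5.07e-04).

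The largest decrease in the family was that of *Trim16* (ENSMUSG00000047821, chr11:62820231-62850808), which lacks a RING finger and takes part in the autophagy of damaged lysosomes. It had 12.5, 11.1 and 9.97 CPM in unstimulated DCs, 1.27, 1.17 and 1.26 with LPS and 6.04, 6.72 and 4.56 under IFN-β. The LPS libraries held 36, 40 and 41 counts, and the 3 conditions did not overlap. The decrease was 9.05-fold under LPS (log2 -3.18 ± 0.17, adjusted p = 6.02e-08) and 1.93-fold under IFN-β (log2 -0.95 ± 0.14, adjusted p = 3.47e-04). Between the stimuli it differed 4.68-fold (log2 2.23 ± 0.17, adjusted p = 2.46e-06).

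*Trim7* (chr11:48826140-48852209), a binding partner of glycogenin, had 8.16, 9.18 and 10.2 CPM, then 2.12, 2.68 and 2.24 with LPS and 6.09, 7.12 and 6.297 under IFN-β. *Trim37* (chr11:87127077-87220683), the MATH-domain member, whose human gene is mutated in the growth disorder mulibrey nanism, had 16.6, 18.3 and 19.3, then 5.45, 5.04 and 5.68 and 9.16, 9.03 and 8.51 CPM. Both fell in steps, with the IFN-β libraries between the other two conditions and no overlap. *Trim7* fell by 1.96 ± 0.13 with LPS and by 0.50 ± 0.12 under IFN-β on the log2 scale (adjusted p = 3.34e-07 and 0.00627). *Trim37* fell by 1.75 ± 0.089 and 1.02 ± 0.085 (adjusted p = 4.54e-08 and 7.83e-06).

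*Trim29* (chr9:43310848-43336115), which lacks a RING finger and is known to bring about the degradation of NEMO and STING, was the member whose 2 responses lay furthest apart among those not moved the same way by both stimuli. It had 23.6, 20.7 and 18.8 CPM in unstimulated DCs, 6.899, 5.86 and 5.56 with LPS and 25.4, 24.6 and 24.8 under IFN-β. Every LPS library was below, and every IFN-β library above, all 3 unstimulated libraries. LPS lowered it 3.45-fold (log2 -1.79 ± 0.11, adjusted p = 1.26e-07). The IFN-β difference of log2 0.25 ± 0.10 did not pass (adjusted p = 0.0631), but did with the letter as a block (adjusted p = 0.00963) and without unstimulated A or LPS A (0.0208 and 0.0491). Set against each other, IFN-β stood 4.09-fold above LPS (log2 2.03 ± 0.11, adjusted p = 1.79e-07).

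The NHL-repeat members, which carry a propeller domain that in relatives binds RNA, were lower or not called. *Trim2* (chr3:84160439-84306877), a ligase studied in neurons, had 3.72, 4.38 and 3.32 CPM in unstimulated DCs, 0.743, 0.524 and 0.369 with LPS and 2.93, 2.58 and 1.88 under IFN-β. Its LPS libraries held 21, 18 and 12 counts and were all below the others, a decrease of 7.03-fold (log2 -2.81 ± 0.26, adjusted p = 3.44e-06). The smaller decrease under IFN-β (log2 -0.63 ± 0.21, adjusted p = 0.0339) was lost without unstimulated A or B or IFN-β B or C, with adjusted p from 0.0584 to 0.124. *Trim32*, a ligase whose human gene is mutated in a limb-girdle muscular dystrophy, was lower under both (log2 -0.71 ± 0.13 and -0.50 ± 0.13, adjusted p = 6.52e-04 and 0.00912). *Trim3* was lower under LPS (log2 -0.57 ± 0.091, adjusted p = 1.95e-04) and had log2 -0.094 ± 0.089 under IFN-β (adjusted p = 0.418).

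**Figure D4:**
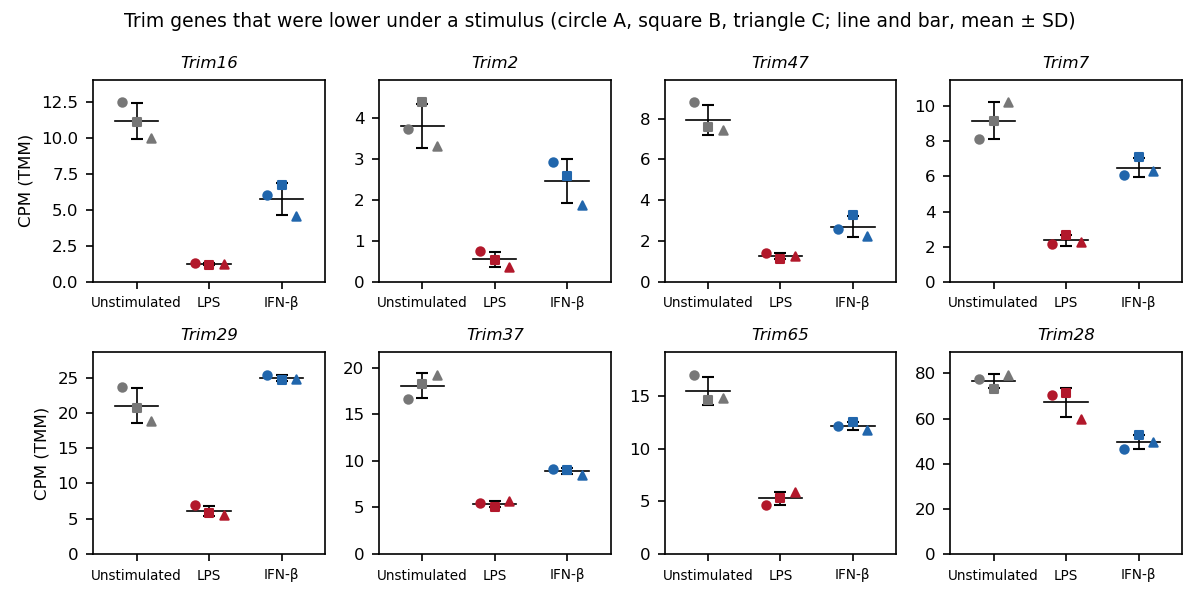
The plot of genes with decreases gives CPM in each library for 8 members, each panel with its own axis from 0, with the mean and SD of each condition as a line and bar. *Trim16* goes from 12.5, 11.1 and 9.97 CPM to 1.27, 1.17 and 1.26 CPM under LPS, *Trim29* is low in the LPS libraries only, and *Trim28* is lowest in the IFN-β libraries.

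Of the reported chromatin readers with a PHD finger and bromodomain, *Trim28* was lower under IFN-β, while *Trim24* and *Trim33* had small changes. *Trim28* (chr7:12999114-13031035), the KAP1 corepressor that silences transposable elements with SETDB1, had 77.6, 73.1 and 79.5 CPM in unstimulated DCs, 70.6, 71.2 and 59.7 with LPS and 46.6, 52.6 and 49.6 under IFN-β. The IFN-β libraries were the lowest 3 of the 9, 1.55-fold below unstimulated (log2 -0.63 ± 0.081, adjusted p = 1.29e-04) and log2 -0.44 ± 0.081 against LPS (adjusted p = 0.00112). Under LPS the log2 difference of -0.19 ± 0.08 had an adjusted p of 0.0541, which fell to 0.0251 with the letter as a block and to 0.0492 and 0.0395 without LPS library A or B. *Trim28* was one of only 4 members, with *Trim27*, *Trim45* and *Trim72*, whose change was larger in size under IFN-β than under LPS.

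*Trim24* (chr6:37870811-37966296), a nuclear receptor cofactor that also acts on p53, had 18.5, 16.01 and 18.8 CPM unstimulated, 15.1, 13.98 and 14.9 with LPS and 16.5, 16.6 and 13.5 under IFN-β. *Trim33* (chr3:103279293-103358775), which regulates SMAD4, had 37.9, 40.7 and 37.2, 46.2, 40.5 and 46.3 and 42.6, 37.7 and 37.2 CPM. The conditions lay close together in both genes and overlapped, apart from LPS against unstimulated in *Trim24*, where every LPS library was below every unstimulated one. *Trim24* was called lower under LPS (log2 -0.27 ± 0.10, adjusted p = 0.0306), a call lost without unstimulated A or C or LPS B or C (adjusted p from 0.0554 to 0.0950). *Trim33* was called higher under LPS (log2 0.20 ± 0.079, adjusted p = 0.0443), a call lost on leaving out any unstimulated library, LPS A or C, or IFN-β B (adjusted p from 0.0523 to 0.142) and turned to lower by scaling to library size alone. Neither passed under IFN-β (log2 -0.19 ± 0.10 and 0.021 ± 0.079, adjusted p = 0.1398 and 0.8501).

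*Trim69* and *Trim72* rose from levels near the floor. *Trim72* (chr7:128003949-128011033), the membrane-repair protein of muscle, had 30, 31 and 5 counts in unstimulated DCs, 59, 74 and 48 with LPS and 99, 70 and 65 under IFN-β. *Trim69* (chr2:122160700-122179027) had 7, 8 and 10 counts, then 18, 30 and 12 with LPS and 21, 14 and 20 under IFN-β. Stimulated libraries stood above unstimulated ones in both genes, with log2 changes of 1.87 ± 0.44 and 1.94 ± 0.43 for *Trim72* (adjusted p = 0.00295 and 0.00391) and 1.67 ± 0.37 and 1.26 ± 0.37 for *Trim69* (adjusted p = 0.00187 and 0.0168). The IFN-β call of *Trim69* was lost without unstimulated B or IFN-β C (adjusted p = 0.0562 and 0.0554). An antisense gene covers 27.6% of the exon bases of *Trim72*.

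The other 16 members, *Trim3* and *Trim32* among them, differed by less than 2-fold from unstimulated DCs, and 7 of them passed the test under neither stimulus. Of the SPRY class, *Trim35* was higher under LPS (log2 0.73 ± 0.057, adjusted p = 9.80e-07) and by log2 0.19 ± 0.057 under IFN-β (adjusted p = 0.0201), where the call was lost without unstimulated C or IFN-β B (0.0854 and 0.0705). *Trim11* was lower under LPS (log2 -0.41, adjusted p = 6.90e-04), and *Trim27* was lower under both (log2 -0.28 and -0.37, adjusted p = 0.00413 and 0.00154). *Trim39*, *Trim41* and *Trim62* passed under neither stimulus, though *Trim62* did under both with the letter as a block (adjusted p = 0.0164 and 0.02104).

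Of the class with FN3 and SPRY domains, *Trim36*, a microtubule-associated ligase, was 1.98-fold higher under LPS (log2 0.99 ± 0.065, adjusted p = 2.49e-07) and at log2 0.057 ± 0.065 under IFN-β (adjusted p = 0.502). The 2 stimuli differed for it by log2 -0.93 ± 0.065 (adjusted p = 1.13e-06). *Trim13*, an endoplasmic reticulum membrane ligase, had the same pattern, with log2 0.69 ± 0.13 under LPS (adjusted p = 6.94e-04), 0.087 ± 0.13 under IFN-β (adjusted p = 0.616) and -0.60 ± 0.13 between them (adjusted p = 0.00295). *Trim46*, which has the same domains as *Trim36*, and *Trim59*, a membrane protein like *Trim13*, did not pass under LPS, but did with the letter as a block (adjusted p = 0.0427 and 0.0495). The single ARF-domain and filamin-domain members *Trim23* and *Trim45* were not called under LPS (log2 0.19 and -0.19, adjusted p = 0.193 and 0.336) or IFN-β (log2 0.08 and -0.43, adjusted p = 0.629 and 0.0611). *Trim8* and *Trim44* were slightly lower under LPS (log2 -0.21 and -0.20, adjusted p = 0.0177 and 0.0137), with both calls lost without certain libraries (*Trim8* without unstimulated A, LPS A or LPS C at 0.0515 to 0.0638, *Trim44* without unstimulated C at 0.0532), and *Trim44* was called lower under IFN-β only with the block (adjusted p = 0.0477).

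By domain class, the increases lay mostly in the SPRY members. Of the 27 tested, 17 were higher and 7 lower under LPS, with a median log2 change of 1.50, and 17 were higher and 5 lower under IFN-β, with a median of 0.95. Outside the SPRY class, 4 of 17 members were higher under LPS (*Trim13*, *Trim33*, *Trim36* and *Trim56*) and 1 of 17 under IFN-β (*Trim56*). Of these, *Trim36* also carries a SPRY domain but was classed apart because of its FN3 domain. Of all genes tested, 32.8% were higher and 35.4% lower under LPS, and 23.6% were higher and 23.3% lower under IFN-β. Nothing particular to the SPRY class is read from its counts of lower members, which did not exceed these shares. The 10 neighbours from *Trim6* to *Trim30d* make up a large part of the SPRY class and share sequence, so they are not separate observations.

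A direct comparison of the 2 stimuli answered whether the responses differed in size. IFN-β and LPS differed in 25 members, 10 higher and 15 lower under IFN-β, where 49.1% of all genes were called, 25.8% higher and 23.3% lower. With an absolute log2 difference of at least 1, 8 members passed, where 17.4% of all genes did. Among the 18 members raised by both stimuli, IFN-β was below LPS in 12 and above it in 0, and in *Trim5*, *Trim25*, *Trim30b*, *Trim34b*, *Trim69* and *Trim72* the test was not passed. Among the 8 lowered by both, IFN-β was above LPS in 6 and below it in 0, with *Trim27* and *Trim32* not called. The absolute log2 change was larger under LPS than under IFN-β in 40 of the 44 members. The median absolute change was 1.40 with LPS and 0.50 under IFN-β, against 0.65 and 0.35 over all genes. LPS thus had the larger median over all genes as well. The counts of 12, 6 and 40 were not made over all genes, so nothing particular to the family is read from them.

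Levels between genes were compared as CPM per kb of exon. In unstimulated DCs *Trim30a* and *Trim25* were the highest at 36.4 ± 9.84 and 35.2 ± 8.49 (SD, n = 3) and overlapped. *Trim8* followed at 20.5 ± 1.31, clear of the genes next to it in the order but overlapping *Trim30d*. Then came *Trim28* (18.4 ± 0.786), *Trim30d* (18.1 ± 5.89) and *Trim35* (17.6 ± 0.5996), which overlapped. Under LPS the first places were those of *Trim30a* (224 ± 10.6) and *Trim30c* (211 ± 54.1), which overlapped, then *Trim25* (118 ± 9.61) and *Trim30d* (110.4 ± 9.798), which overlapped as well. *Trim30c* had been the 13th of 44 in unstimulated DCs at 7.21 ± 4.26 and *Trim21* the 20th at 4.68 ± 0.828, and they were the 2nd and the 5th under LPS. *Trim8*, a regulator of the kinase TAK1, went from the 3rd to the 12th place as others rose, with 17.7 ± 0.907 under LPS. Under IFN-β the order began with *Trim30a* (138 ± 4.58) and *Trim25* (90.8 ± 4.34), each clear of the next, then *Trim30d* (70.00 ± 3.41) and *Trim30c* (62.3 ± 14.4), which overlapped. Of the 43 pairs of neighbours in the order, 34 overlapped between libraries in unstimulated DCs, 25 with LPS and 24 under IFN-β.

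**Figure D5:**
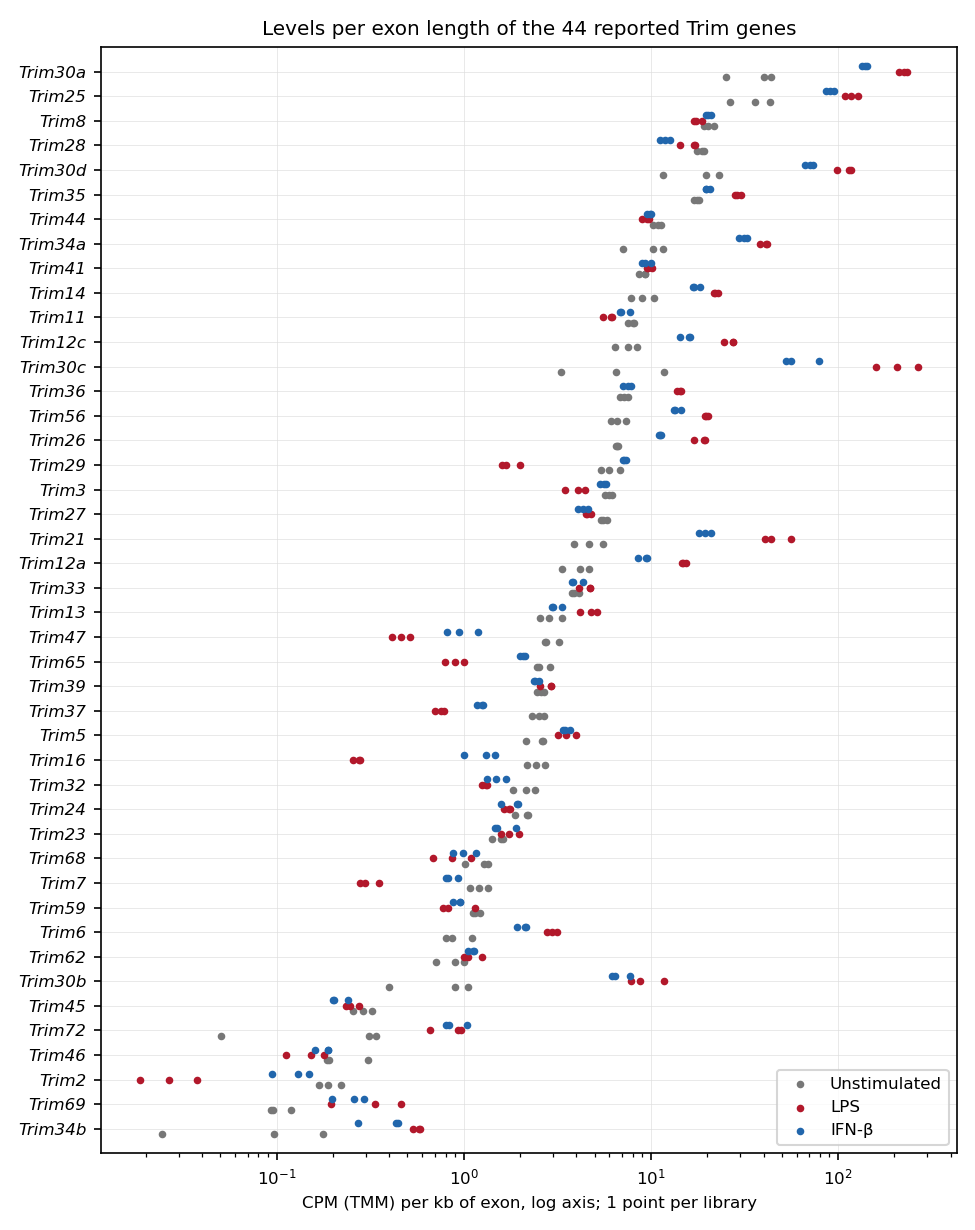
The plot of levels gives CPM per kb of exon on a log axis for the 44 genes, ordered by the unstimulated mean, with 1 point per library. *Trim30a* and *Trim25* are at the top in unstimulated DCs (36.4 ± 9.84 and 35.2 ± 8.49), *Trim30c* and *Trim21* move far to the right of their neighbours under stimulation, and *Trim16*, *Trim47*, *Trim7* and *Trim2* move to the left under LPS.

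TRIM genes that carry other symbols, and that the rule did not take, were read off the same fit. Of the 5 listed, 4 were tested and all 4 were higher under both stimuli, where 32.8% of all genes were higher under LPS and 23.6% under IFN-β, with a median log2 change of 1.98 with LPS and 1.25 under IFN-β. *Pml*, the organiser of nuclear bodies, had means of 68.1, 339 and 257 CPM in unstimulated, LPS and IFN-β DCs (log2 2.32 and 1.92, adjusted p = 1.23e-07 and 3.13e-06). *Mefv*, the gene of the inflammasome protein pyrin, had 7.93, 70.8 and 15.3 CPM, and its level under IFN-β was below that under LPS by log2 -2.20 (adjusted p = 8.84e-06). *Mid1*, a microtubule-associated ligase, and *Cmya5* were the other two that rose, and *Mid2* was below the filter on low counts.

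Most of the listed sensors and adaptors that TRIM proteins act on were higher, though not always where their TRIM partner was. The list held 18 symbols for 15 genes, 3 of them under an older and a newer name, and all 15 were tested. Under LPS 11 were higher and 2 lower (median log2 1.20), against 32.8% and 35.4% of all genes, and under IFN-β 11 were higher and 2 lower (median 0.63), against 23.6% and 23.3%. *Ddx58*, which encodes the TRIM25 substrate RIG-I, had means of 127, 843 and 589 CPM. *Zc3hav1*, the gene of ZAP, had 205, 589 and 443 CPM. *Ifih1*, which encodes the TRIM65 substrate MDA5, rose (log2 4.32 and 2.93, adjusted p = 6.11e-08 and 4.03e-06) where *Trim65* fell. *Mavs*, the partner of TRIM14, was lower under both (log2 -1.30 and -0.34, adjusted p = 1.68e-07 and 0.00474) where *Trim14* rose. *Sting1*, the gene of STING, was lower under LPS (log2 -0.92, adjusted p = 1.70e-05), where *Trim56* rose and *Trim29* fell. Under IFN-β *Sting1* was not called (log2 0.21, adjusted p = 0.124), and *Irf3* was lower (log2 -0.30, adjusted p = 0.00729). *Tab2*, whose product TRIM30a removes, was higher under both (log2 1.41 and 0.37, adjusted p = 8.91e-08 and 0.00289), as was *Tab3*.

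The chromatin partners of *Trim24*, *Trim28* and *Trim33* moved in mixed directions. Of 9 tested, 3 were higher and 6 lower under LPS (median log2 -0.55), against 32.8% and 35.4% of all genes, and 0 were higher and 3 lower under IFN-β (median -0.03), against 23.6% and 23.3%. With 9 genes, the share higher under LPS was near that of all genes, and nothing particular to the list is read from these counts. *Setdb1*, the methyltransferase recruited by TRIM28, was lower under both (log2 -0.49 and -0.18, adjusted p = 2.75e-05 and 0.0271), and so were *Cbx3* and *Cbx5*, which encode HP1 proteins. *Smad4*, regulated by TRIM33, was higher under LPS (log2 0.28, adjusted p = 0.0236).

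The cultures held the markers of GM-CSF DCs, with *Itgax* at mean levels of 1375 to 1602 CPM and none of 9 markers at 0. The summed level of the DC markers was 7792 to 8876 CPM in unstimulated, 9630 to 10328 in LPS and 8707 to 9294 in IFN-β libraries. *Flt3* was low at 2.65 to 3.49 CPM. The 3 macrophage markers *Adgre1*, *Mertk* and *Fcgr1* were expressed in all libraries. All 3 were higher under LPS, and *Mertk* and *Fcgr1* but not *Adgre1* (log2 0.063, adjusted p = 0.846) under IFN-β. In unstimulated, LPS and IFN-β libraries they summed to 301 to 479, 1078 to 1463 and 902 to 1117 CPM, and their part in the TRIM changes was not tested. Neutrophil markers summed to 9.45 to 24.7 CPM over all libraries, and markers of T, B and NK cells and mast cells to at most 0.354 CPM in any library.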

How the data were processed

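The authors deposited 1 table of whole-number counts per gene. Per the study's methods and the submitters' processing notes, ribosome-depleted RNA was sequenced as paired 100-base reads, trimmed with Trim Galore (0.6.0 in the notes), aligned to mm10 with STAR (2.7.8a in the notes) and counted by STAR's gene counter, which leaves out reads that map to several places. The strand setting is not given in the sources used here.

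Genes were tested with edgeR 4.0.16 in R 4.3.3 (quasi-likelihood test, TMM factors, filterByExpr, 1 term per condition over all 9 libraries), with Benjamini-Hochberg adjustment over the 16260 genes tested. IFN-β against LPS equals the difference between the responses. The 95% intervals were built from the standard error with the normal distribution. They are therefore narrower than the limited number of libraries would give. The script was tested on simulated data. Libraries of a condition differed beyond sampling noise. Exon lengths, places and overlaps came from GENCODE M21, the release after the one counted with, and promoters from RefSeq (GRCm38.p6).

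Same-letter libraries of different conditions deviated together (9 of 9 pairs, correlation 0.134 to 0.546 across genes), so the letters may mark a pairing. The main fit has no term for the letter, so its standard errors, p-values and counts leave this pairing out. The fit with the letter as a block is given where it changes a call. Members and lists were chosen with earlier results of these data known. Each library's value is given for members called with a log2 change of 1 or more in size, the *Trim5*, *Trim6*, *Trim12*, *Trim21*, *Trim30*, *Trim34* and *Trim68* genes, *Trim14*, *Trim25*, *Trim26*, *Trim56*, *Trim65*, *Trim24*, *Trim28* and *Trim33*, and other members are given by their largest changes per class. Alternatives were DESeq2 1.42.0, library size only, upper-quartile factors, 2 other count filters, fits of 2 conditions, the block, each library left out and a fold threshold.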

Additional observations from a re-analysis of the deposited data

How the results depend on the processing

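Without composition factors (library size only) the median of all genes moved by -0.58 under LPS, -0.31 under IFN-β and 0.27 between them, and changes are to be read relative to that shift. Under it 17 members were higher and 23 lower under LPS (21 and 15 with TMM), 16 and 21 under IFN-β (18 and 9) and 14 and 10 between IFN-β and LPS (10 and 15), and 10 values changed sign. Under LPS these were *Trim5* (-0.059), *Trim23* (-0.39), *Trim33* (-0.38), *Trim39* (-0.46) and *Trim41* (-0.47), under IFN-β *Trim33* (-0.29), *Trim35* (-0.12), *Trim36* (-0.25) and *Trim41* (-0.25), and between the stimuli *Trim41* (0.22). Among the other alternatives no called value changed sign. They left 1872 of 1971 single-gene values on the same side of the threshold, with 55 calls lost and 44 gained. The counts called ranged over them from 32 to 40 under LPS, 25 to 30 under IFN-β and 21 to 29 between the stimuli. With an absolute log2 change of at least 1 the counts were 23, 16 and 8. The letter as a replicate block gave 40, 30 and 29 members (36, 27 and 25 without it), added 11 calls, and changed no call beyond those printed above and that of *Trim33* and *Trim39* between the stimuli (log2 -0.18 and -0.20, adjusted p = 0.0393 and 0.0273). With 5 or 20 counts as the minimum of the reporting rule, 47 and 44 members were reported. Calls that single libraries changed and that the report does not give were *Trim8* (without LPS A or C or IFN-β A or B, 0.0745 to 0.113), *Trim11* (without LPS C or IFN-β B, 0.0633 to 0.0701), *Trim33* (gained without LPS B or IFN-β A, 0.0310 to 0.0322) and *Trim39* (gained without LPS A, 0.0152) between the stimuli, and *Trim59* and *Trim62* (gained, 0.00598 to 0.0479).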

Other observations

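Among the 24 TRIM genes below the reporting rule, the largest summed counts over the 9 libraries were those of *Trim17* (55), *Trim66* (53) and *Trim9* (45). *Trim17* had 0, 1 and 3 counts in unstimulated libraries, 7, 13 and 8 with LPS and 8, 10 and 5 with IFN-β, and *Trim66*, the germ-cell relative of the PHD-bromodomain members, had 7, 6 and 9, then 5, 4 and 7, and 3, 9 and 3. *Trim43b*, one of 3 *Trim43* genes of preimplantation embryos, had 15 counts in LPS library C and at most 3 in any other library. These counts were too low for the test, and none of these genes was tested.

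Unstimulated library C held the lowest level of the 9 libraries for 21 of the 44 reported members, among them *Trim5*, *Trim12a*, *Trim12c*, *Trim14*, *Trim21*, *Trim25*, *Trim26*, *Trim34a*, *Trim56* and the 4 *Trim30* genes. Without that library the changes of *Trim30c* were log2 4.52 (LPS) and 2.77 (IFN-β), and without unstimulated library A, its highest unstimulated one, they were 5.41 and 3.66. The part of unstimulated library C in the differences between members was not tested. A member whose stimulated libraries all stood above the unstimulated ones has its lowest level in an unstimulated library. The count of 21 was not made over all genes, so nothing particular to the family is read from it.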
